A study of Arabidopsis thaliana with 9 samples.

Results

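GRAS proteins are plant-specific transcriptional regulators that share a carboxy-terminal GRAS domain. The family holds the DELLA repressors of gibberellin signalling, SHORT-ROOT and SCARECROW, which pattern the root ground tissue, SCL3, which acts in both gibberellin signalling and the root ground tissue, and the branch around PAT1 and SCL21, known for phytochrome A signalling. The transcripts described here were those of 10 GRAS loci other than SCL3, taken wherever the array annotation tied a probe set to a single gene. Of the 10 loci, 6 had such a probe set, among 13355 genes with one in the whole series. They were SCL21 (AT2G04890), AT5G66770, AT1G63100, AT2G37650, AT3G46600 and AT3G50650. The other 4, SCL1, PAT1, SCL8 and SCL14, were not analysed here. RefSeq's table for TAIR10.1 placed AT1G63100 on chromosome 1, SCL21 and AT2G37650 on chromosome 2, AT3G46600 and AT3G50650 on chromosome 3, and AT5G66770 on chromosome 5. Apart from SCL21, it gave the members no symbol other than the locus name.

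RNA came from whole roots of Arabidopsis thaliana, all of ecotype Col-0, 7 days after germination, on Affymetrix ATH1 arrays with one sample each. The SCL3 OE plants overexpressed SCL3, the scl3 plants carried the loss-of-function allele scl3-1, and the Col-0 plants were wild type, with 3 arrays of each. All plants were grown on MS medium at 22 °C, with 16 h of light and 8 h of dark a day. The labels used here do not give the promoter behind the overexpression, the number of lines, or the number of roots pooled in a sample. In the series text the 3 samples of a genotype are described as biological replicates. The probe set of SCL3 itself carried no gene name in the annotation, so the transcript that was altered was not checked here. Values are the deposited MAS5 signals, which are linear intensities, and means and differences are of log2(signal + 1). A probe set was called at an adjusted p under 0.05.

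The arrays were put into 3 sets by genotype and replicate number. Clustering of the signals of 45 spiked-in control probe sets, cut at 3 clusters, gave the same sets. Set 3 held the SCL3 OE arrays, set 2 held replicate 3 of scl3 and of Col-0, and set 1 held replicates 1 and 2 of scl3 and of Col-0. No label names these sets. SCL3 OE lay alone in set 3 and alone in its cluster, so for that line the genotype cannot be told apart from the array set. The summed signal of 2 measured markers of photosynthetic shoot cells, out of 16 listed, ran from 1474 to 1845 in SCL3 OE, from 42875 to 44249 in set 2 and from 447 to 675 in set 1. The summed signal of 5 measured root cell markers, out of 14 listed, ran from 19683 to 21999 in SCL3 OE, from 23517 to 24605 in set 2 and from 34533 to 40089 in set 1, and none of the 5 was at 0 in any array. Most of that sum was PYK10, at 16894.4 to 19103.8 in SCL3 OE. Within the root list AT1G09750 and AT1G62500 were 32.9-fold and 7.75-fold higher in set 2 than in set 1 in limma. The other markers of that list were lower there. AT1G09750 reached 5009.0 and 5439.7 in set 2. PYK10 was at 16618.1 and 17214.3 in set 2, overlapping SCL3 OE, and EXPA7 and EXPA18 were lower in set 2 than in every SCL3 OE array. That the sum was higher in set 2 than in SCL3 OE thus rested on AT1G09750 and AT1G62500. EXPA7 was higher in every SCL3 OE array (936.9 to 1125.7) than in any other array, and AT1G09750 was higher in every SCL3 OE array than in any set 1 array. The other root markers, PYK10, EXPA18 and AT1G62500, were lower in every SCL3 OE array than in any set 1 array. AT1G62500, at 69.8 to 87.0 in SCL3 OE, was also below the set 2 arrays. For the 13647 probe sets tested, 76.8% differed between set 2 and set 1 at an adjusted p under 0.05 in limma. Genotype differences below are therefore taken from 2 models, with genotype alone and with array set as a further term. That term marks the set 2 arrays and takes their shift to be the same in scl3 and Col-0. SCL3 OE is then set against fitted set 1 levels of scl3 and Col-0, which the set 2 arrays also move. For SCL21 this gave 0.30 against Col-0 and 0.48 against scl3, beside 0.38 and 0.40 against the set 1 arrays alone.

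SCL21, which promotes phytochrome A signalling together with PAT1, had signals of 230.1, 244.2 and 296.6 in the SCL3 OE arrays, 172.4, 217.1 and 320.8 in the scl3 arrays, and 206.9, 185.0 and 453.1 in the Col-0 arrays. The highest values of the scl3 and Col-0 groups were their set 2 arrays, and the 3 genotypes overlapped. On the log2 scale it averaged 8.00 ± 0.19 in SCL3 OE, 7.85 ± 0.45 in scl3 and 8.02 ± 0.70 in Col-0 (SD, n = 3 each). The order of the means was thus Col-0, SCL3 OE and scl3, with no neighbours further apart than their SDs. Set against the 4 set 1 arrays alone, which spanned 172.4 to 217.1, all 3 SCL3 OE arrays were higher.

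AT5G66770 had signals of 170.0, 152.1 and 158.3 in the SCL3 OE arrays, 96.4, 103.6 and 185.1 in the scl3 arrays, and 103.2, 87.3 and 249.0 in the Col-0 arrays. The SCL3 OE arrays lay close together, above the 4 set 1 arrays and below both set 2 arrays. Its mean log2 signal was 7.33 ± 0.08 in SCL3 OE, 6.95 ± 0.51 in scl3 and 7.04 ± 0.81 in Col-0 (SD, n = 3 each). SCL3 OE had the highest mean, but the groups overlapped because the set 2 arrays exceeded it.

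AT1G63100 ran the other way, with signals of 180.8, 148.6 and 102.4 in the SCL3 OE arrays, 275.0, 215.8 and 70.2 in the scl3 arrays, and 317.4, 198.1 and 72.7 in the Col-0 arrays. Its lowest signals were those of the set 2 arrays, and all SCL3 OE arrays lay between these and the set 1 arrays. The mean log2 signal was 7.14 ± 0.41 in SCL3 OE, 7.34 ± 1.04 in scl3 and 7.39 ± 1.08 in Col-0 (SD, n = 3 each). With a highest signal 4.52 times the lowest, it varied most over the 9 arrays among the 6 members, and AT3G46600 varied least, at 1.49 times.

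AT2G37650 was the only member for which any 2 genotypes did not overlap. Over all tested probe sets, 28.0% did not overlap between SCL3 OE and Col-0, and 2.26% between scl3 and Col-0. It had signals of 105.1, 130.4 and 106.9 in the SCL3 OE arrays, 120.6, 106.5 and 127.6 in the scl3 arrays, and 139.2, 137.6 and 203.3 in the Col-0 arrays. All Col-0 arrays were above all scl3 and all SCL3 OE arrays, although SCL3 OE replicate 2, at 130.4, was close to Col-0 replicate 2. The mean log2 signal was 6.84 ± 0.17 in SCL3 OE, 6.89 ± 0.13 in scl3 and 7.31 ± 0.32 in Col-0 (SD, n = 3 each).

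AT3G46600 had signals of 522.2, 472.0 and 631.7 in the SCL3 OE arrays, 561.5, 668.5 and 704.9 in the scl3 arrays, and 555.0, 560.9 and 704.5 in the Col-0 arrays. The genotypes overlapped, and the lowest signals were those of SCL3 OE replicates 1 and 2. Its mean log2 signal was 9.07 ± 0.21 in SCL3 OE, 9.33 ± 0.17 in scl3 and 9.24 ± 0.19 in Col-0 (SD, n = 3 each). AT3G50650 had signals of 108.4, 137.1 and 115.0 in the SCL3 OE arrays, 113.6, 94.4 and 158.3 in the scl3 arrays, and 149.4, 106.7 and 223.4 in the Col-0 arrays. It too overlapped between genotypes, with the set 2 array highest in scl3 and in Col-0. Its mean log2 signal was 6.91 ± 0.17 in SCL3 OE, 6.91 ± 0.37 in scl3 and 7.26 ± 0.53 in Col-0 (SD, n = 3 each).

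**Figure D1:**
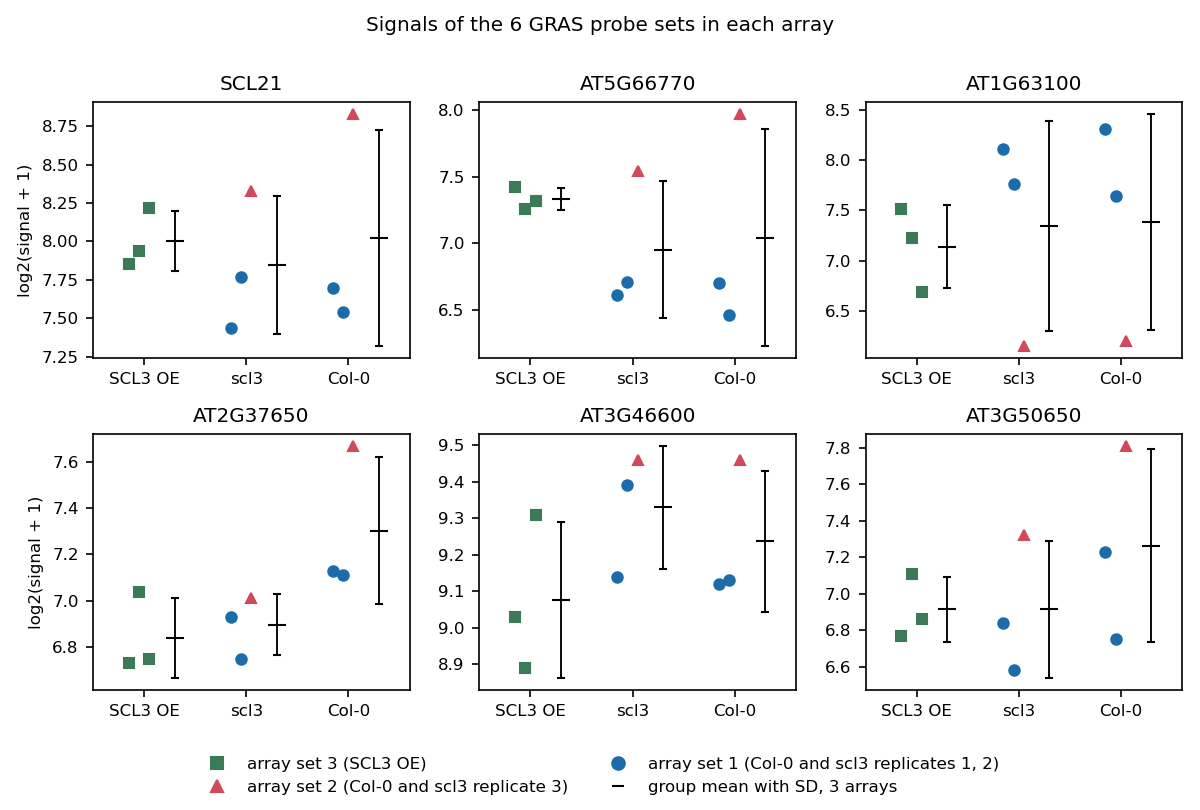
Signals of the 6 GRAS probe sets, as log2(signal + 1) on the vertical axis, in the SCL3 OE, scl3 and Col-0 arrays from left to right; squares, triangles and circles mark array sets 3, 2 and 1, and bars give the group mean with its SD over 3 arrays. The triangles of SCL21, AT5G66770 and AT3G50650 lie at the top of the scl3 and Col-0 groups and those of AT1G63100 at the bottom, while AT2G37650 separates Col-0 from both other genotypes.

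In the comparison of SCL3 OE with Col-0, no GRAS member passed the test when genotype was the only term in limma, against 1.20% of the 13647 probe sets, and no member had an unadjusted p under 0.05, against 13.2% of probe sets. The members' log2 differences ran from -0.47 to 0.29, with a median of -0.20, against 0.13 for all probe sets. With array set as a term, 2 of the 6 members were called, against 33.6% of all probe sets, so the share of members was near the background. The same 2 were called when the set 2 arrays were left out, against 38.0% of all probe sets. In the model with array set, AT5G66770 was 1.58-fold higher in SCL3 OE, with a log2 difference of 0.66 ± 0.18 (SE) and a limma adjusted p of 0.0136. With genotype alone its difference was 0.29 ± 0.43 (SE, limma adjusted p = 0.839). Its set 1 mean of 6.62 lay under the low-signal filter of 6.65 (signal 99.3), so it passed the filter through its SCL3 OE and set 2 arrays. AT1G63100 was 1.79-fold lower in SCL3 OE in the model with array set, with a log2 difference of -0.84 ± 0.25 (SE) and a limma adjusted p of 0.0228. With genotype alone it differed by -0.24 ± 0.66 (SE, limma adjusted p = 0.912). SCL21 differed by 0.30 ± 0.17 (SE) in the model with array set, with a limma adjusted p of 0.187.

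The comparison of SCL3 OE with scl3 sets the line with more SCL3 against the mutant that lost it. With genotype alone, none of the 6 members was called in limma, against 1.91% of probe sets, and none had an unadjusted p under 0.05, against 14.9%. The median difference of the members was -0.03, against 0.12 for all probe sets. Once array set was a term, 3 of the 6 were called, against 39.0% of all probe sets. Without the set 2 arrays, 2 were called, AT5G66770 and AT1G63100, against 40.5%. AT5G66770 was 1.69-fold higher, by 0.76 ± 0.18 (SE, limma adjusted p = 0.00592), and SCL21 was 1.39-fold higher, by 0.48 ± 0.17 (SE, limma adjusted p = 0.0396). AT1G63100 was 1.73-fold lower in SCL3 OE, with a log2 difference of -0.79 ± 0.25 (SE, limma adjusted p = 0.026). These 3 values are from the model with array set. With genotype alone the differences were 0.38 ± 0.43 for AT5G66770, 0.16 ± 0.38 for SCL21 and -0.20 ± 0.66 for AT1G63100 (SE). Their limma adjusted p values were 0.766, 0.902 and 0.93. No member had SCL3 OE and scl3 arrays that did not overlap, against 31.3% of probe sets. The comparisons of SCL3 OE with Col-0 and with scl3 share the SCL3 OE arrays.

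The calls that came with the array set term rested on few arrays. For AT5G66770 against scl3, the call held when any one of the 9 arrays was left out, with log2 differences of 0.67 to 0.85. Against Col-0, the AT5G66770 call was lost without Col-0 replicate 2, where the difference was 0.52 with a limma adjusted p of 0.0806. For AT1G63100 against Col-0, it was lost without Col-0 replicate 1 (-0.60, limma adjusted p = 0.149) and without SCL3 OE replicate 3 (-0.61, limma adjusted p = 0.0859). Against scl3, the AT1G63100 call was lost without scl3 replicate 1 (-0.67, limma adjusted p = 0.129) and without SCL3 OE replicate 3 (-0.57, limma adjusted p = 0.0976). The SCL21 call against scl3 held in 2 of the 9 cases, when scl3 replicate 2 or SCL3 OE replicate 1 was left out, and the limma adjusted p otherwise reached up to 0.151. Without the low-signal filter its limma adjusted p was 0.0672.

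In the comparison of scl3 with Col-0, which asks what losing SCL3 does to the transcripts of its relatives, none of the 6 members passed the test in limma with either model, nor without the set 2 arrays, against 0.00733% of all probe sets, a single one of 13647, in each. With genotype alone none had an unadjusted p under 0.05, against 0.366% of probe sets. The member differences ran from -0.41 to 0.09, with a median of -0.13 against 0.00 for all probe sets, and 5 of the 6 were below 0. Arrays of scl3 and Col-0 did not overlap for 1 of the 6 members, AT2G37650, against 2.26% of all probe sets. Its log2 difference was -0.41 ± 0.23 (SE, limma adjusted p = 1) with genotype alone and -0.41 ± 0.17 (SE, limma adjusted p = 0.567) with array set as a term, with an unadjusted p of 0.0332 in the second limma model, reached by 8.38% of probe sets. Within array sets the AT2G37650 difference of scl3 from Col-0 was -0.29 in set 1, with 2 arrays of each genotype, and -0.67 in set 2, with 1 of each. For SCL3 OE against Col-0 the same gene differed by -0.47 ± 0.23 (SE, limma adjusted p = 0.456), or by -0.35 ± 0.18 (SE, limma adjusted p = 0.165) with array set as a term. Here too 1 of the 6 members did not overlap, against 28.0% of probe sets. These comparisons share the Col-0 arrays. The exact 2-sided permutation p was 0.1 for both, which is the smallest that 3 arrays against 3 can give.

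In the model with array set, the 95% interval of the log2 difference of scl3 from Col-0 was -0.52 to 0.17 for SCL21, -0.46 to 0.27 for AT5G66770, and -0.56 to 0.47 for AT1G63100. It was -0.18 to 0.36 for AT3G46600 and -0.76 to 0.06 for AT3G50650. The interval of AT2G37650, -0.79 to -0.04, was the only one of the 6 without 0, before any adjustment for the number of probe sets. Within set 1 alone, scl3 differed from Col-0 by -0.02 for SCL21, 0.07 for AT5G66770, -0.04 for AT1G63100, 0.13 for AT3G46600 and -0.28 for AT3G50650. Within set 2, with 1 array of each genotype, the corresponding values were -0.50, -0.43, -0.05, 0.00 and -0.49.

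**Figure D2:**
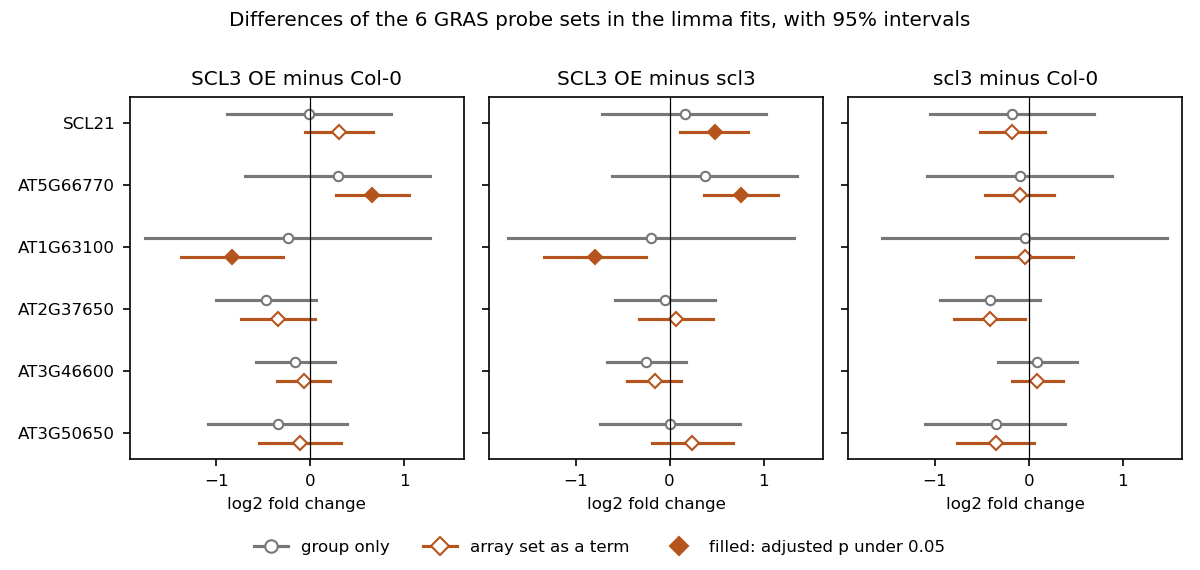
Log2 fold changes of the 6 GRAS probe sets on the horizontal axis, with 95% intervals, in the 3 genotype comparisons; grey circles are from limma with genotype alone and brown diamonds from limma with array set as a term, and a filled symbol has an adjusted p under 0.05. No circle is filled, and the filled diamonds are AT5G66770 and AT1G63100 in both SCL3 OE comparisons and SCL21 in the comparison of SCL3 OE with scl3.

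For several members, replicate 3 of scl3 and of Col-0 stood further from the other replicates than any genotype stood from another. In the limma model with array set as a term, 4 of the 6 members differed between set 2 and set 1, against 76.8% of all probe sets. SCL21 was higher in set 2 by 0.97 ± 0.17 (SE, limma adjusted p = 0.000224), with signals of 320.8 and 453.1 in set 2 against 172.4 to 217.1 in set 1. AT5G66770 was higher by 1.13 ± 0.18 (SE, limma adjusted p = 0.000108), and AT3G50650 by 0.71 ± 0.20 (SE, limma adjusted p = 0.00611). AT1G63100 was 3.43-fold lower in set 2, with a log2 difference of -1.78 ± 0.25 (SE, limma adjusted p = 4.34e-05), with signals of 70.2 and 72.7 in set 2 against 198.1 to 317.4 in set 1. Both of those set 2 signals lay under 99.3, the signal at the filter.

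The set 2 and set 1 arrays did not overlap for 5 of the 6 members, all but AT2G37650, against 79.7% of probe sets. Of all probe sets tested, 22.0% were called higher and 54.7% lower in set 2, with a median difference of -0.42. The members' median was 0.54, and 3 were called higher and 1 lower. AT2G37650 (0.36 ± 0.18 SE, limma adjusted p = 0.089) and AT3G46600 (0.27 ± 0.13 SE, limma adjusted p = 0.0765) were not called as deposited. Both were called higher in set 2 when arrays were scaled to one median, with differences of 0.59 and 0.50 and limma adjusted p values of 0.0101 and 0.00554, and no member changed direction under that scaling. All 6 members were then called, against 9821 of 13647 probe sets. With quantile normalisation all 6 were called too, against 10145 of 13647. Set 2 also had the higher signal of photosynthesis markers and the lower summed signal of root markers given above, and their part in these differences was not tested. In RNA of whole roots, fewer cells of a type and less RNA per cell cannot be told apart.

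In 3 members SCL3 OE lay off the set 1 arrays on the side of set 2. All SCL3 OE arrays were above all set 1 arrays for SCL21 and AT5G66770 and below them for AT1G63100, while the other 3 members overlapped. Over all tested probe sets, 49.5% did not overlap between SCL3 OE and set 1, in either direction and whichever side set 2 lay on. The 3 of 6 members were thus near the background. The share on the side of set 2 was not counted. For AT5G66770 the difference with array set as a term was 0.66 for SCL3 OE against Col-0, beside 1.13 for set 2 against set 1, and for AT1G63100 it was -0.84 beside -1.78. Photosynthesis markers had a summed signal in SCL3 OE above that in set 1, of 1474 to 1845 against 447 to 675. Both measured markers of that list had a higher signal in every SCL3 OE array than in any set 1 array. Of the root markers, PYK10, EXPA18 and AT1G09750 lay off set 1 on the side of set 2 in SCL3 OE, and EXPA7 and AT1G62500 on the far side. The part of either marker list in the member differences was not tested.

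The list of other GRAS genes held 22 loci, of which 8 had a single-gene probe set and 3 passed the low-signal filter. AT5G59450 had signals of 394.1, 480.9 and 444.6 in the SCL3 OE arrays, 368.1, 407.6 and 192.7 in the scl3 arrays, and 370.9, 459.4 and 246.1 in the Col-0 arrays. Only its set 2 arrays stood apart. AT1G07520, which RefSeq places next to SCL14, and AT2G29065 had the same arrangement, with set 2 arrays of 126.0 and 144.7 for AT1G07520 and of 115.7 and 103.4 for AT2G29065. None of these 3 was called in any genotype comparison in limma with either model. The shares of all probe sets called were 1.20% for SCL3 OE against Col-0, 1.91% for SCL3 OE against scl3 and 0.00733% for scl3 against Col-0 with genotype alone, and 33.6%, 39.0% and 0.00733% with array set as a term. All 3 were lower in set 2, beside 54.7% of all probe sets called lower there, with log2 differences of -0.87 ± 0.14 for AT5G59450, -0.73 ± 0.16 for AT1G07520 and -0.53 ± 0.21 for AT2G29065 (SE). The limma adjusted p values were 9.97e-05, 0.00114 and 0.0379, and the call for AT2G29065 was lost with arrays scaled to one median (-0.30, limma adjusted p = 0.222).

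The other 5 GRAS genes with a probe set had a mean log2 signal over the 9 arrays below the filter and were left out of the main fits. Single arrays of AT5G41920 and LAS nevertheless exceeded a signal of 99.3. AT5G41920, listed in RefSeq under the synonym SCL23, a relative of SCARECROW, had signals of 95.1, 60.9 and 74.0 in the SCL3 OE arrays, 50.8, 59.5 and 202.4 in the scl3 arrays, and 68.3, 58.2 and 213.0 in the Col-0 arrays. Its set 2 arrays were the high ones, as for SCL21 and AT5G66770. LAS, known for the formation of axillary meristems in the shoot, had signals of 72.6, 70.8 and 66.7 in the SCL3 OE arrays, 90.6, 109.7 and 40.8 in the scl3 arrays, and 85.6, 59.6 and 15.3 in the Col-0 arrays. The lowest were again set 2 arrays. AT3G13840 had 16.6, 22.7 and 16.8 in SCL3 OE, 42.3, 32.7 and 15.2 in scl3, and 59.4, 54.3 and 26.7 in Col-0, so that SCL3 OE and set 2 both lay below set 1. All signals of AT3G13840 were below 99.3. Without the filter and with array set as a term, it differed by -1.60 ± 0.41 between SCL3 OE and Col-0 (SE, limma adjusted p = 0.0185). In that fit 4636 of 22746 probe sets were called. It was not called against scl3 (-0.94, limma adjusted p = 0.134), nor against Col-0 with genotype alone (-1.21, limma adjusted p = 0.449). AT3G49950 and AT4G08250 reached at most 41.7 and 63.5 in any array.

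**Figure D3:**
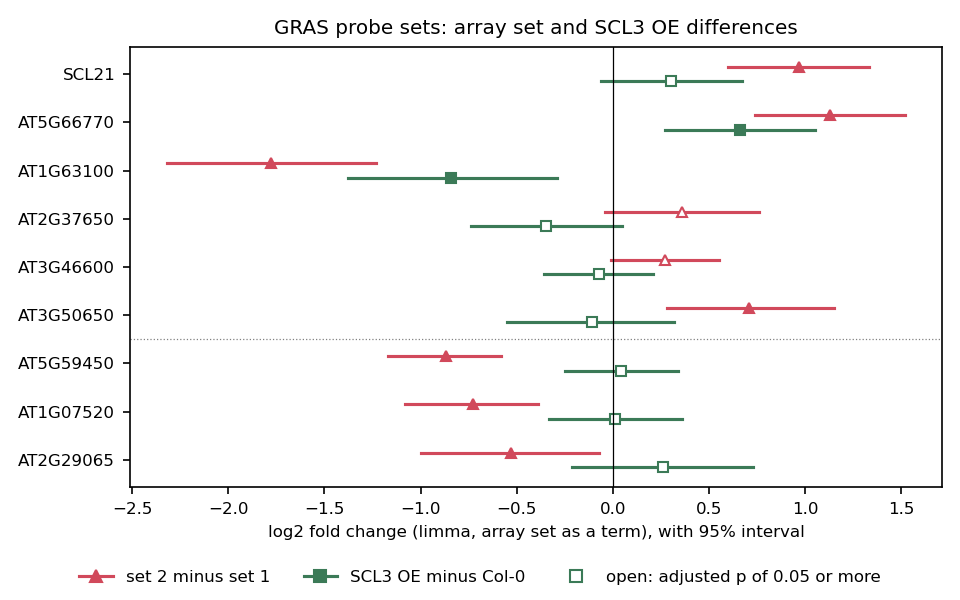
Log2 fold changes with 95% intervals from limma with array set as a term, for the 6 GRAS members above the dotted line and 3 other GRAS genes below it; red triangles are set 2 minus set 1, green squares are SCL3 OE minus Col-0, and open symbols have an adjusted p of 0.05 or more. Of the members, 5 triangles lie right of 0 and that of AT1G63100 left of it, the 3 other GRAS genes all have triangles left of 0, and filled squares are those of AT5G66770 and AT1G63100.

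Likeness of the members' patterns was measured as the root mean square distance between centred log2 signals over the 9 arrays. SCL21 and AT5G66770 were 0.19 apart, as were AT2G37650 and AT3G50650, and these were the closest pairs. AT1G63100 was 0.86 to 1.18 from each of the other 5. Among 7361 named genes tested, the nearest to SCL21 were PIP, a proline iminopeptidase, at 0.103, AT1G33290 at 0.114 and AAH, an allantoate amidohydrolase of ureide breakdown, at 0.136, where the median gene was at 0.65. After quantile normalisation PIP moved to rank 14, at 0.169, and AAH to rank 19, while AT1G33290 ranked 1. The nearest to AT5G66770 were AT4G01330 at 0.089, AT1G53560 at 0.103 and AFR at 0.108. AFR is an F-box protein known for the far-red light response. After quantile normalisation AT4G01330 ranked 2, AFR 12 and AT1G53560 22, the last at 0.159.

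The nearest to AT1G63100 were AT5G66310 at 0.176, 3xHMG-box2, a chromosomal high-mobility-group protein, at 0.223 and AT4G02850 at 0.225. AT5G66310 stayed the nearest after quantile normalisation and with a pseudocount of 32, whereas 3xHMG-box2 moved to rank 46 with that pseudocount. AT2G37650 was nearest to AT2G27830 at 0.110, AT3G60520 at 0.123 and AT3G11600 at 0.136. AT3G46600 was nearest to AT5G42960 at 0.114, AT5G65000 at 0.117 and PEP, an RNA-binding protein with KH domains, at 0.119. AT3G50650 was nearest to AT2G42190 at 0.136, AT1G69800 at 0.145 and TRM26 at 0.155. These distances describe 9 arrays that share 3 array sets, so genes that differ alike between the sets come out as near.

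Genes of phytochrome A signalling, the pathway in which PAT1 and SCL21 are known to act, were represented by 2 of 16 listed genes. FHL, a homologue of FHY1 that carries phytochrome A into the nucleus, had signals of 54.7, 56.6 and 53.6 in the SCL3 OE arrays, 238.0, 181.2 and 322.5 in the scl3 arrays, and 243.6, 242.8 and 261.6 in the Col-0 arrays. All SCL3 OE arrays were below all others. FHL was 4.47-fold lower in SCL3 OE than in Col-0 with genotype alone, with a log2 difference of -2.16 ± 0.24 (SE, limma adjusted p = 0.0107), or -2.04 ± 0.18 with array set as a term (SE, limma adjusted p = 1.21e-05). The SCL3 OE signals of FHL lay below 99.3, the signal at the filter, so that the fold depends on the pseudocount, and with one of 32 the difference with genotype alone was -1.69 (limma adjusted p = 0.0141). Against scl3 the difference was -2.11 ± 0.24 (SE, limma adjusted p = 0.0108). The difference from Col-0 was -2.18 to -2.13 whichever array was left out. With genotype alone the limma adjusted p exceeded 0.05 without Col-0 replicate 1, where it was 0.0652, and without any one of the SCL3 OE arrays, where it was 0.0653 to 0.0851. Against scl3 it exceeded 0.05 without scl3 replicate 1 and without any one SCL3 OE array, at 0.0603 to 0.0822, and with array set as a random block FHL was not called in either comparison.

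FHL was not called between the array sets. Its set 2 signals of 322.5 and 261.6 lay above its set 1 signals of 181.2 to 243.6, on the far side from SCL3 OE, and the limma difference of set 2 from set 1 was 0.37 ± 0.18 (SE, adjusted p = 0.0814). HYH, a homologue of the light-response factor HY5, had signals of 466.4, 605.3 and 538.6 in SCL3 OE, 364.9, 494.9 and 353.0 in scl3, and 428.5, 557.4 and 208.7 in Col-0. It overlapped between genotypes and was not called, at 0.53 ± 0.35 (SE, limma adjusted p = 0.609) for SCL3 OE against Col-0. Thus 1 of the 2 tested genes of the list was called lower and none higher in SCL3 OE, beside 0.762% of all probe sets called lower. SCL21 itself did not share the FHL pattern, with overlapping genotypes and a difference of -0.02 ± 0.38 (SE, limma adjusted p = 0.986) with genotype alone.

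SCL14 is known to act with TGA factors on genes of xenobiotic detoxification, and of 15 genes listed for that role 1 was measured. This was GSTU25, a tau-class glutathione S-transferase, with signals of 3057.3, 3356.3 and 3910.4 in the SCL3 OE arrays, 4622.7, 4646.2 and 275.1 in the scl3 arrays, and 3955.4, 3765.1 and 192.7 in the Col-0 arrays. Its set 2 arrays were far below the rest, and the log2 difference of set 2 from set 1 was -4.19 ± 0.11 (SE, limma adjusted p = 4.31e-11). For SCL3 OE against scl3 the sign depended on the array set term, with 0.92 ± 1.41 (SE, limma adjusted p = 0.837) for genotype alone and -0.48 ± 0.11 (SE, limma adjusted p = 0.0044) with the term. Against Col-0 it was not called in either model.

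A pair of cell cycle lists was set beside the members. Of 23 genes of mitosis, 3 were measured, all Aurora kinases of chromosome segregation. For SCL3 OE against Col-0 none was called with genotype alone, beside 1.20% of all probe sets. In the model with array set 1 of the 3 was called, lower in SCL3 OE, beside 16.0% of all probe sets called lower. This was AUR2, which was 1.47-fold lower in SCL3 OE than in Col-0, a log2 difference of -0.56 ± 0.16 (SE, limma adjusted p = 0.0181). AUR2 signals were 321.6, 255.3 and 258.3 in SCL3 OE, 422.3, 374.7 and 170.4 in scl3, and 375.8, 385.3 and 246.2 in Col-0, with both set 2 arrays lowest. The AUR2 call was lost without SCL3 OE replicate 2 or 3. AUR1 (-0.01 ± 0.13 SE) and AUR3 (-0.31 ± 0.25 SE) were not called in the model with array set, with limma adjusted p values of 0.95 and 0.365. With genotype alone the differences from Col-0 were -0.25 ± 0.36 for AUR2, 0.33 ± 0.38 for AUR1 and -0.23 ± 0.29 for AUR3 (SE).

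The list of cyclin-dependent kinase inhibitors around SIAMESE held 11 loci, of which 6 had a probe set and 4 were tested. SIM, the SIAMESE inhibitor known for the switch from division to endoreduplication, had signals of 2536.9, 2859.3 and 2725.2 in the SCL3 OE arrays, 1464.5, 1426.1 and 787.5 in the scl3 arrays, and 1467.9, 1446.2 and 847.8 in the Col-0 arrays. All SCL3 OE arrays were above all others, and the set 2 arrays were lowest, on the far side from SCL3 OE. SIM was higher in SCL3 OE than in Col-0 by 1.15 ± 0.30 with genotype alone (SE, limma adjusted p = 0.128). In the model with array set it was 1.83-fold higher, by 0.88 ± 0.09 (SE, limma adjusted p = 2.23e-05), and it stayed called with that term whichever array was left out. With array set as a random block SIM was not called against Col-0, where 0 of 13647 probe sets were.

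Among the other 3 tested loci of the SIAMESE list, none had all SCL3 OE arrays above all others. AT5G02420 had signals of 640.7, 622.0 and 715.4 in SCL3 OE, 1034.7, 925.9 and 305.5 in scl3, and 1003.8, 875.9 and 380.2 in Col-0. With array set as a term it was 1.49-fold lower in SCL3 OE than in Col-0, a log2 difference of -0.57 ± 0.12 (SE, limma adjusted p = 0.00363), while with genotype alone the difference was -0.08 ± 0.52 (SE, limma adjusted p = 0.966). Its SCL3 OE arrays lay between set 2 and set 1, as those of AT1G63100 did. AT1G08180 (0.05 ± 0.19 SE) and AT1G10690 (0.02 ± 0.25 SE) were not called against Col-0 with array set as a term, with limma adjusted p values of 0.851 and 0.968. With genotype alone they differed by -0.39 ± 0.49 and 0.30 ± 0.40 (SE) and were not called either. Of the 4 tested loci, 1 was thus called higher and 1 lower against Col-0 with array set as a term, beside 17.6% and 16.0% of all probe sets. Against scl3 with that term, 2 were called higher, SIM and AT1G08180, and 1 lower, AT5G02420. Of all probe sets, 39.0% were called there in either direction. AT1G08180 differed from scl3 by 0.56 ± 0.19 (SE, limma adjusted p = 0.0356), and without the set 2 arrays it was not called (0.58, limma adjusted p = 0.0526).

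**Figure D4:**
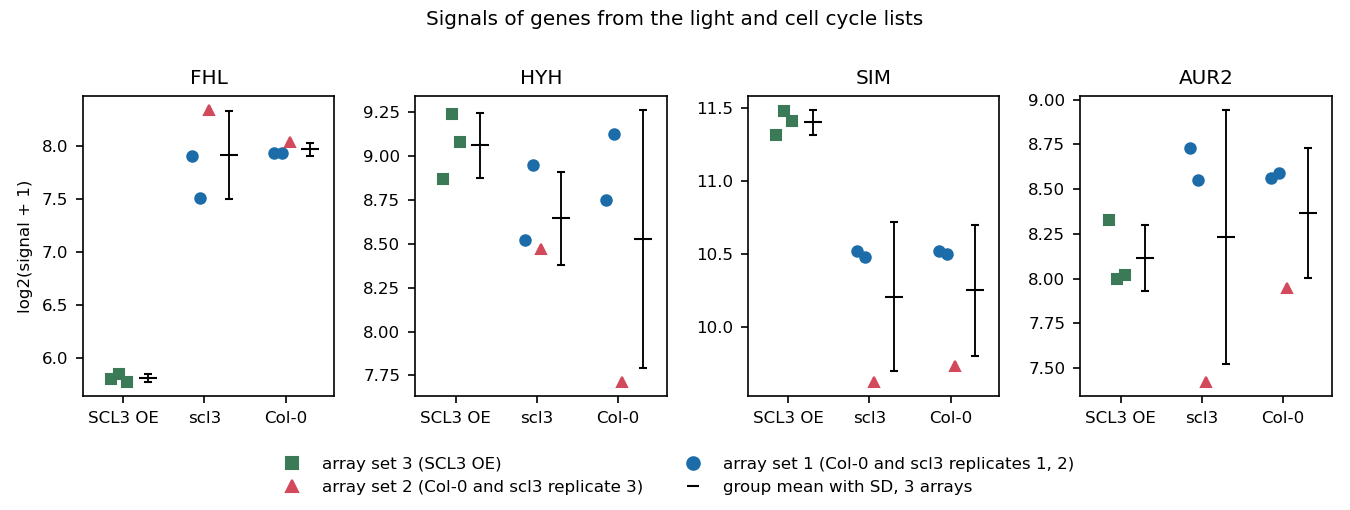
Signals of FHL, HYH, SIM and AUR2 as log2(signal + 1) on the vertical axis, in the SCL3 OE, scl3 and Col-0 arrays from left to right; squares, triangles and circles mark array sets 3, 2 and 1, and bars give the group mean with its SD over 3 arrays. FHL and SIM separate SCL3 OE from the other 6 arrays, FHL below them and SIM above, whereas HYH and AUR2 overlap between genotypes.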

How the data were processed

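Total RNA of 9 whole-root samples was hybridised to Affymetrix ATH1 arrays. The authors deposited a linear signal intensity for each probe set. These came from the MAS5 method and version 1.1 of Affymetrix Expression Console, as the submitters' processing notes state. Array medians were 158.7 to 191.2, and the number of arrays limits the precision. Sample titles gave each sample's group and replicate number. Here, values were taken as log2(signal + 1), and 64 control probe sets were left out. Of 22746 plant probe sets, the 13647 with a mean over the 40th percentile, which was 6.65 (signal 99.3), were tested with limma 3.58.1 in R 4.3.3. The model had group alone, all 9 arrays and an intensity trend, with Benjamini-Hochberg adjustment and a threshold of 0.05. Because of the pseudocount of 1, folds of dim probe sets are slightly understated. Fits with array set as a term, and without the set 2 arrays, were set beside it. Array sets were assigned by genotype and replicate number. Complete-linkage clustering of the spiked-in control probe sets, cut at 3 clusters, gave the same sets.

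In the platform annotation 13513 plant probe sets carried a single gene, 503 carried several and 8730 none here. RefSeq's TAIR10.1 table gave symbols for 13436 of the first kind. Genes were named by a rule: every measured member and other GRAS gene, up to 4 tested genes of each other list with the smallest p for SCL3 OE against Col-0 with the array set term, and the 3 nearest patterns per member. The members and lists were chosen with earlier results of these data known. The replicate numbers in the titles were checked for pairing. Same-numbered scl3 and Col-0 arrays deviated from their group means together (r of 0.90, 0.89 and 0.95). Replicates 1 and 2 also correlated across numbers (0.89 and 0.86), which follows the array sets. These values therefore cannot show whether replicates 1 and 2 were paired between the groups. Pairs with SCL3 OE had r of -0.12 to 0.09 and were not taken as paired. Fits with the replicate number as a block were alternatives. The fitting code was tested on simulated data. Figures were drawn with matplotlib 3.10.9.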

Additional observations from a re-analysis of the deposited data

How the results depend on the processing

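With genotype alone, 164 probe sets were called for SCL3 OE against Col-0, 260 for SCL3 OE against scl3 and 1 for scl3 against Col-0, and 0 GRAS members in each. The array set term raised the first count to 4590 and the second to 5319, with 2 and 3 members, and leaving out the set 2 arrays gave 5182 and 5521, with 2 members each, without SCL21. With array set as a random block in limma the counts were 0 (250 at an unadjusted p under 0.05) and 1, with 0 members in each. Fitting only the 2 groups compared gave 81 for SCL3 OE against Col-0, and scaling to one median gave 396 for SCL3 OE against scl3. Leaving out 1 array at a time gave 4 (without SCL3 OE replicate 3) to 327 (without scl3 replicate 3) probe sets for SCL3 OE against Col-0, and 8 (without scl3 replicate 1 or SCL3 OE replicate 3) to 658 (without Col-0 replicate 3) against scl3, with 0 members throughout. With the array set term it left 1 to 2 members against Col-0, beside 3325 to 5166 of the 13647 probe sets. Against scl3 it left 1 to 3 members, beside 3904 to 5500 probe sets. GSTU25 in SCL3 OE against scl3 turned from 0.92 to -0.48 with the term and to -0.44 without the set 2 arrays. The cause of these changes was not tested. With the replicate number as a block and all arrays, the counts were 205, 369 and 1, and the block moved no member over the threshold and, of the other named genes, brought SIM for SCL3 OE against scl3 under it (limma adjusted p = 0.0484); with scl3 and Col-0 arrays only, the blocked count was 1 probe set and 0 members. Signs of uncalled differences changed in at least 1 setting for 10 of 18 member values with genotype alone and 5 of 24 with the term. The changes were not all small. With genotype alone and 1 array left out, AT1G63100 ran from -0.84 to 0.22 for SCL3 OE against Col-0, and from -0.64 to 0.55 for scl3 against Col-0. The filter at the 60th percentile kept 1 of the 6 members. The block on scl3 and Col-0 arrays alone, and the alternatives of the array set model and of the list genes, were chosen after seeing the data. MAS5 signals near the filter limit what can be said of dim probe sets.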
